A study of Sus scrofa with 6 samples.

Results

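GDF9 (ENSSSCG00000014288) and BMP15 (ENSSSCG00000012310) are the paired growth factors that the egg cell secretes to its surrounding cumulus and granulosa cells. They were picked by pig gene symbol and identifier, and they make up 2 of the 25880 genes listed for each library. The study sequenced polyadenylated RNA of pig (Sus scrofa) oocytes at metaphase II, the stage at which a mature egg waits for sperm. In 3 libraries the oocytes had matured in medium with 1 mM malathion, an organophosphate insecticide diluted from a 0.75 M stock in DMSO, and in 3 control libraries they had not. The labels do not say whether control medium held DMSO. All oocytes came from slaughterhouse ovaries, from antral follicles of 3 to 6 mm, and were collected inside their cumulus cells. The number of oocytes in a library and the origin of the replicates are not given, and p-values here measure only how these libraries vary, which may be technical. Melatonin, named in the study's title, was given to none of these groups by the labels, and the question asked of these libraries was how malathion affects mRNA stored in the oocyte.

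Both proteins belong to the transforming growth factor beta superfamily. Each is made as a precursor, cut by proprotein convertases, and released as a dimer, either of like subunits or of GDF9 joined to BMP15. On cumulus and granulosa cells both bind the type II receptor BMPR2. GDF9 then acts through the type I receptor TGFBR1 and SMAD2 and SMAD3, and BMP15 through the type I receptor BMPR1B and SMAD1, SMAD5 and SMAD9. Together they drive follicle growth and cumulus expansion. Mice without Gdf9 are sterile with follicles arrested early, and in sheep, ewes heterozygous for inactivating BMP15 mutations ovulate more eggs while homozygous ewes are sterile. Because both transcripts are made during oocyte growth, an MII oocyte holds them as a remaining store. The Smart-seq2 method copies RNA from its poly(A) tail, so the counts follow polyadenylated copies.

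The 6 libraries differed in composition as much within as between groups. Total gene counts ran from 25816040 to 42312341. The replicate 3 libraries held 8492 detected genes after malathion and 8344 in control, against 12211 to 14707 genes in the other libraries. Levels are given as CPM, counts scaled so that the genes of each library have the same sum. The 14 oocyte markers with an identifier summed to 81690, 60730 and 4353 CPM in malathion replicates 1, 2 and 3, and to 75780, 28030 and 7084 CPM in control replicates 1, 2 and 3. The markers did not move as one. In malathion replicate 3, the egg coat gene ZP2 (2158 CPM) and the meiotic kinase gene MOS (1458 CPM) made up 83.1% of the sum, against 0.377% to 1.82% in the other libraries, and the other 12 markers summed to 737 CPM. In control replicate 3, UCHL1 stood at 2687 CPM, a large part of the sum there, and OOEP at 382 CPM, against at most 102 CPM elsewhere. FIGLA and DDX4, germ cell markers, reached at most 4.50 and 2.29 CPM in any library. The 17 cumulus and granulosa markers with an identifier summed to 711, 745 and 68.6 CPM in the malathion libraries, and to 668, 460 and 39.0 CPM in the control libraries. In each library most of this sum came from VCAN and KITLG, so it mainly follows these 2 genes. They stood at 423.7 and 244.1 CPM in malathion replicate 1, and at 14.15 and 18.8 CPM in control replicate 3. Of these 17 markers, 6, 2 and 9 were at 0 in malathion replicates 1, 2 and 3, and 2, 7 and 10 in control replicates 1, 2 and 3. AMH and AMHR2 were at 0 in all 6 libraries. A library reports shares of its own RNA, so fewer cells of a type and less RNA per cell cannot be told apart.

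GDF9 stood at 377, 404 and 27.5 CPM in malathion replicates 1, 2 and 3, and at 393, 2650 and 259 CPM in control replicates 1, 2 and 3. These values rest on 9733, 11208 and 1164 reads in the malathion libraries and on 10922, 71829 and 7642 reads in the control libraries. The groups overlapped. Malathion replicates 1 and 2 and control replicate 1 lay within a narrow band, control replicate 2 stood far above it, and malathion replicate 3 far below. The exact 95% Poisson interval of the lowest value ran from 26.0 to 29.1 CPM and that of the highest from 2631 to 2669 CPM, so counting error was small beside the distance between libraries. Such intervals hold counting error alone, because reads copied by PCR do not stand for separate molecules.

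BMP15 stood at 5810, 4492 and 80.8 CPM in malathion replicates 1, 2 and 3, and at 5523, 3524 and 21.8 CPM in control replicates 1, 2 and 3. These values rest on 149993, 124745 and 3418 reads in the malathion libraries and on 153462, 95512 and 642 reads in the control libraries. The groups overlapped here too, and the division ran between replicates: the replicate 3 library was the lowest of its group on either side. BMP15 was 71.9 times lower in malathion replicate 3 than in malathion replicate 1, and 253.5 times lower in control replicate 3 than in control replicate 1. The ratio of control replicate 3 to control replicate 1 was near the extreme for that library, with a lower one for 0.00937% of the 10678 tested genes. For malathion replicate 3 against malathion replicate 1 the share was 3.39%. The median log2 change of tested genes between the same libraries was -2.19 on the malathion side and -2.27 on the control side.

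GDF9 did not follow BMP15 through these libraries. In control replicate 2, GDF9 was 6.74 times its level in control replicate 1, a higher ratio than that of 94.2% of tested genes, while BMP15 was 1.57 times lower there. In control replicate 3, GDF9 was 1.52 times lower than in control replicate 1, where 85.5% of tested genes had a lower ratio. In malathion replicate 3, GDF9 was 13.7 times lower than in malathion replicate 1, and 24.6% of tested genes had a lower ratio. Over the 6 libraries the highest level of GDF9 was 96.3 times its lowest, and that of BMP15 266.7 times its lowest. Wide ranges were common: among the 1424 genes whose mean reached 100 CPM the median was 70.2 times, and 43.1% of them had a wider range than GDF9 and 22.5% a wider range than BMP15.

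**Figure D1:**
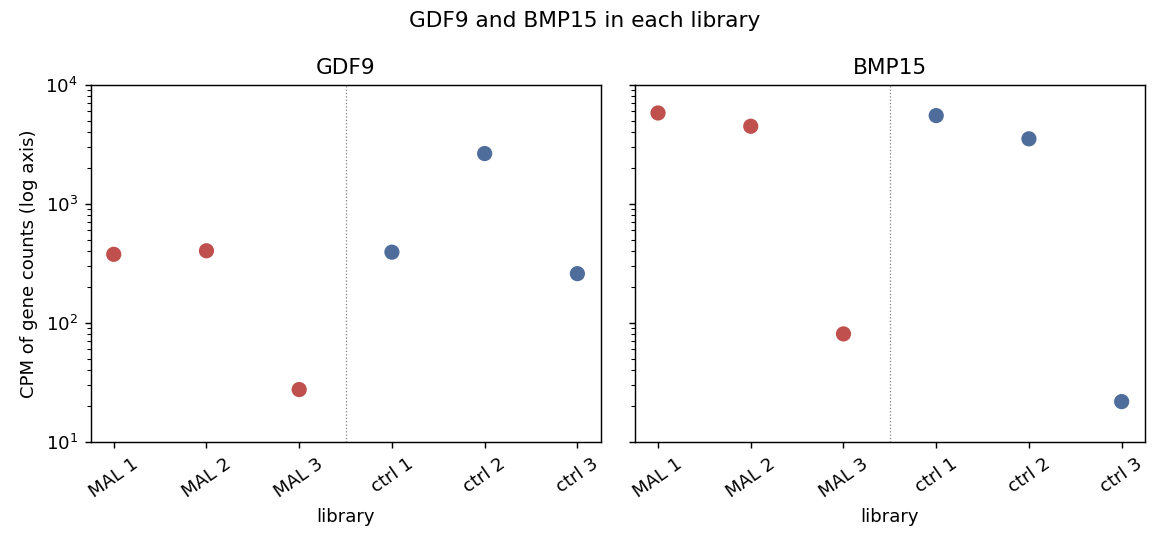
CPM of GDF9 (left) and BMP15 (right) in each library on a log axis, with the malathion libraries (MAL) in red and the control libraries (ctrl) in blue; the 95% Poisson bars are smaller than the points. GDF9 is highest in control replicate 2 at 2650 CPM and lowest in malathion replicate 3 at 27.5 CPM, whereas BMP15 is low in both replicate 3 libraries.

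The ratio of GDF9 to BMP15 within a library does not depend on sequencing depth or on any scaling of the library. Transcript length was not used, so the ratio is compared between libraries and says nothing of which transcript was the more abundant. It was 0.0649, 0.0899 and 0.341 in malathion replicates 1, 2 and 3, and 0.0712, 0.752 and 11.9 in control replicates 1, 2 and 3. Put as a share of the reads of both genes, GDF9 took 6.09%, 8.24% and 25.4% in the malathion libraries, and 6.64%, 42.9% and 92.2% in the control libraries. The widest exact 95% binomial interval was that of malathion replicate 3, from 24.2% to 26.7%. Malathion replicates 1 and 2 and control replicate 1 thus shared nearly 1 ratio, and the other libraries held more GDF9 per BMP15.

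The mean log2 ratio was -2.99 ± 1.27 in malathion libraries and -0.22 ± 3.70 in control libraries (SD, n = 3 each). The difference, malathion minus control, was -2.77 on the log2 scale, which was smaller than the spread among the control libraries. An exact two-sided permutation test gave p = 0.3, where the smallest p that 3 against 3 libraries allow is 0.1. The groups overlapped, since the ratio of control replicate 1 lay between those of malathion replicates 1 and 2. Between same-numbered libraries, malathion minus control, the log2 ratio differed by -0.13 in the replicate 1 pair, by -3.07 in the replicate 2 pair and by -5.13 in the replicate 3 pair. Leaving out control replicate 3, the difference was -0.88, and leaving out control replicate 1 it was -4.57. With malathion replicates 1 and 2 and control replicate 1 alone it was 0.10. That setting was added after the data were seen, and these libraries shared nearly 1 ratio, so a difference near 0 followed from the choice. A spread over the 6 libraries of this size was usual beside BMP15. Log2 ratios to BMP15 were taken for the 1422 other genes whose mean reached 100 CPM with a count in each library. Their SD over the 6 libraries had a median of 2.00, was 2.90 for GDF9 and was larger than that for 36.4% of genes. Their malathion minus control difference had a median of -0.79, and 9.35% of genes had a lower one than GDF9.

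**Figure D2:**
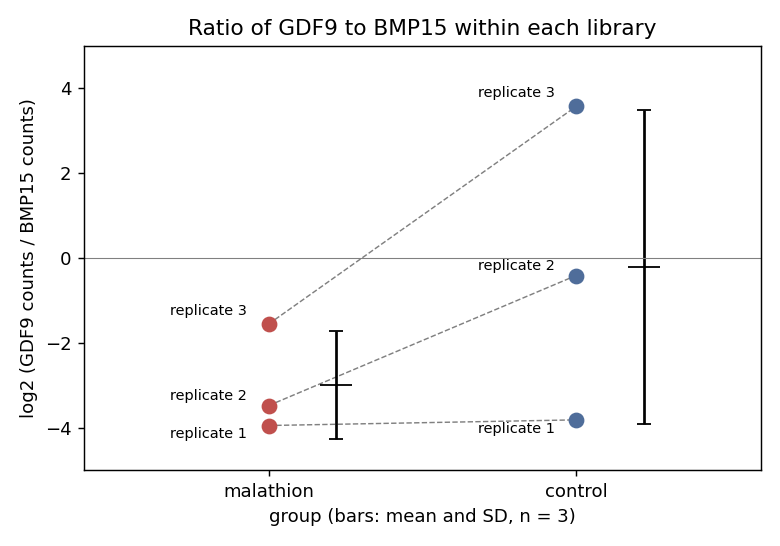
Log2 ratio of GDF9 reads to BMP15 reads in each library, by group, with black bars for the mean and SD of 3 libraries and dashed lines joining same-numbered libraries. The 3 malathion libraries lie between -3.95 and -1.55 and the 3 control libraries between -3.81 and 3.57, so the groups overlap.

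Malathion against control left neither growth factor past the test. GDF9 averaged 269 ± 210 CPM in malathion libraries and 1101 ± 1343 CPM in control libraries (SD, n = 3 each). Its log2 fold change in edgeR's quasi-likelihood test on library totals was -2.03 ± 1.87 (SE), with a 95% interval from -5.69 to 1.63 (Benjamini-Hochberg adjusted p = 1). BMP15 averaged 3461 ± 3001 CPM in malathion libraries and 3023 ± 2784 CPM in control libraries (SD, n = 3 each). Its log2 fold change in the same edgeR test was 0.20 ± 1.80 (SE), with an interval from -3.33 to 3.72 (adjusted p = 1). Thus 0 of the 2 genes passed, beside 0 of the 10678 genes tested (0%). DESeq2 and limma-voom also called 0 genes. At an unadjusted p under 0.05 the numbers were 110 genes with edgeR, 227 with DESeq2 and 3 with limma-voom. Over all tested genes the fold changes had a median of -0.33 (log2), which puts GDF9 at -1.70 and BMP15 at 0.53 relative to it. A lower fold change than that of GDF9 was found for 9.77% of tested genes.

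On library totals, GDF9 was lower after malathion in 3 of 3 same-numbered pairs. In replicates 1 the log2 ratio was -0.06, where the median of all tested genes was -0.08, in replicates 2 it was -2.71 with 404 CPM after malathion against 2650 CPM in control, and in replicates 3 it was -3.24 with 27.5 CPM after malathion against 259 CPM in control. A lower value in each pair was found for 14.6% of tested genes. BMP15 was higher after malathion in 3 of 3 pairs on library totals, with log2 ratios of 0.07, 0.35 and 1.89 in replicates 1, 2 and 3. A higher value in each pair was found for 6.80% of tested genes. The difference of replicates 1 was small for both genes, a factor of 1.04 for GDF9 and of 1.05 for BMP15, and the counts of pairs turned with the scale. With TMM factors, which scale libraries so that most genes match, GDF9 was lower in 2 of 3 pairs (0.02 in replicates 1) and BMP15 higher in 3 of 3. Relative to the summed oocyte markers, GDF9 was lower in 3 of 3 pairs and BMP15 higher in 1 of 3, with log2 ratios of -0.04, -0.76 and 2.59 in replicates 1, 2 and 3. With ZP2 and MOS left out of that sum, GDF9 was lower in 2 of 3 pairs, at 0.02 in replicates 3. BMP15 was again higher in 1 of 3, at 5.15 in replicates 3.

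On library totals the size of the GDF9 difference depended on control replicate 2. Without that library its log2 fold change was -0.28 in edgeR, with an interval from -4.68 to 4.13, and in malathion replicates 1 and 2 against control replicate 1 alone it was -0.01 (interval -0.62 to 0.60), where the lone control library is assumed to vary like the malathion libraries. Without both replicate 3 libraries it was -1.96 ± 0.86 (SE, edgeR adjusted p = 0.939). BMP15 changed direction when a library was left out, with -0.40 without malathion replicate 1, -0.04 without malathion replicate 2 and -0.39 without control replicate 3. Its interval was narrowest without control replicate 2 and both replicate 3 libraries, at -0.10 and from -0.59 to 0.39.

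The scaling of the libraries moved the levels of GDF9 more than its fold change. The TMM factors were 2.25, 2.67 and 0.138 in malathion replicates 1, 2 and 3, and 2.39, 3.57 and 0.141 in control replicates 1, 2 and 3. On that scale GDF9 stood at 167, 151 and 199 normalised CPM in the malathion libraries, and at 165, 742 and 1843 normalised CPM in the control libraries. The malathion libraries then lay close together, at 172 ± 24.5 against 916.5 ± 853 normalised CPM in control libraries (SD, n = 3 each), and control replicate 1 lay among them. The log2 fold change was -2.41 for GDF9 and 0.49 for BMP15 with TMM factors, where the median of all genes was -0.08. On this scale GDF9 was highest in control replicate 3, and its log2 fold change was -2.54 without control replicate 2 and -1.38 without control replicate 3, both settings added after the data were seen. BMP15 stood at 2577, 1680 and 584.5 normalised CPM in the malathion libraries, and at 2314, 987 and 155 normalised CPM in the control libraries.

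Set against the summed oocyte markers of the same library, a scale added after the data were seen, GDF9 amounted to 0.462%, 0.665% and 0.632% in malathion replicates 1, 2 and 3, and to 0.519%, 9.45% and 3.66% in control replicates 1, 2 and 3. BMP15 amounted to 7.11%, 7.40% and 1.86% in the malathion libraries, and to 7.29%, 12.6% and 0.308% in the control libraries. On this scale GDF9 was high in 2 of the 3 control libraries and BMP15 was low in both replicate 3 libraries. Both readings changed for malathion replicate 3 when ZP2 and MOS were left out of the sum. GDF9 then amounted to 0.466%, 0.675% and 3.73% in the malathion libraries, and to 0.525%, 9.63% and 3.67% in the control libraries. BMP15 amounted to 7.18%, 7.52% and 10.96% in the malathion libraries, and to 7.37%, 12.8% and 0.309% in the control libraries. Exact two-sided permutation tests of the log2 values gave p = 0.3 for GDF9 and p = 0.9 for BMP15 over all markers, and p = 0.5 and p = 0.8 without ZP2 and MOS (n = 3 each, smallest possible p 0.1). ZP2 and MOS were the markers that stood out in malathion replicate 3. The sum was not recomputed without UCHL1, which held 2687 of 7084 CPM in control replicate 3. The marker sum itself was lowest in the replicate 3 libraries, and its part in these values was not tested.

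**Figure D3:**
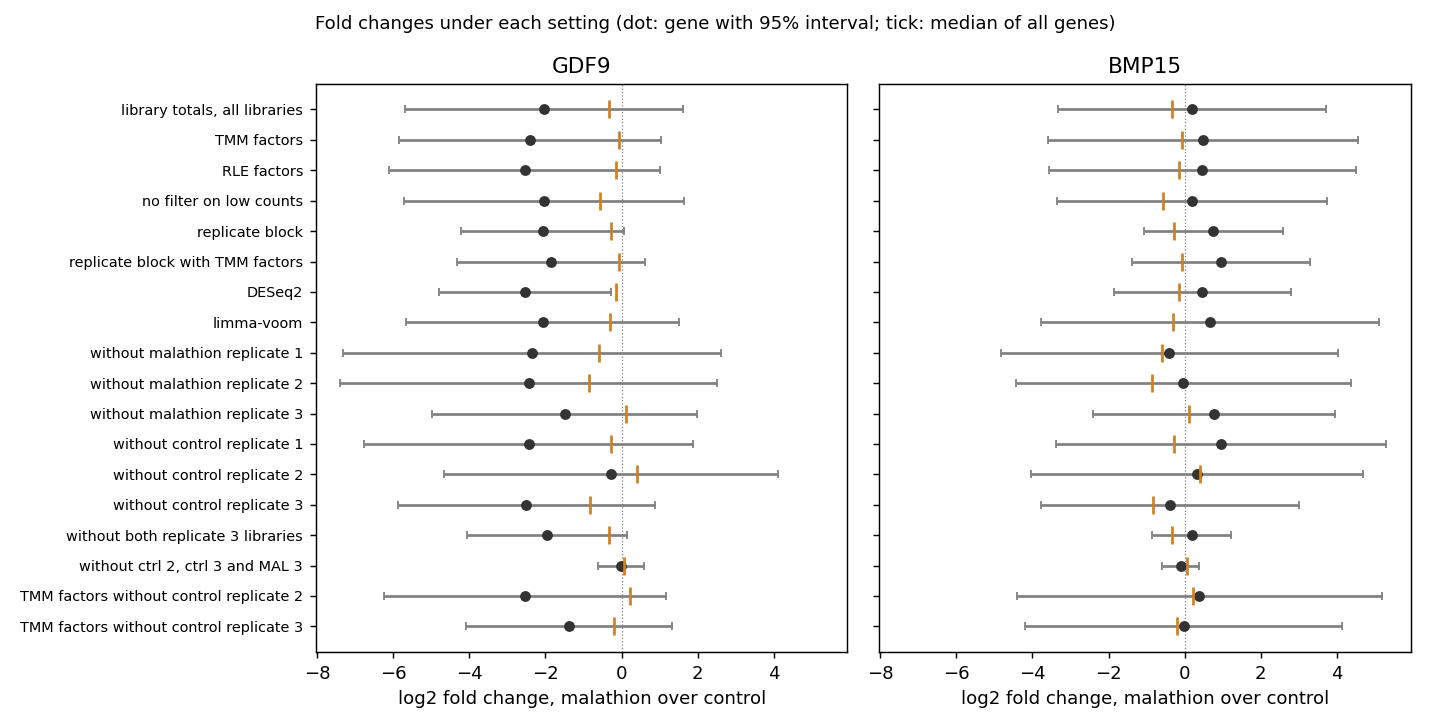
Log2 fold change of malathion over control for GDF9 (left) and BMP15 (right) under each setting, as dots with 95% intervals; orange ticks give the median of all genes tested under that setting. GDF9 runs from -2.54 to -0.01 and BMP15 from -0.40 to 0.97, and each interval contains 0 except that of GDF9 with DESeq2, whose adjusted p was 1.00.

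Genes that process the ligands, receive them and pass on their signal were described by role, for 89 identifiers in 8 lists. Of these, 10 had 0 counts in all libraries and 56 were tested. None of the 56 passed (0 higher and 0 lower), beside 0% of all genes. By sign alone 27 had a fold change above 0 and 29 below, with a median of -0.08 against -0.33 for all tested genes. That median was 0.11 with TMM factors, and it ran from -0.69 without malathion replicate 2 to 0.39 without control replicate 2.

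Among the 4 proprotein convertases only PCSK5 reached a mean of 10 CPM. It stood at 7.83, 8.79 and 5.22 CPM in malathion replicates 1, 2 and 3, and at 13.6, 14.8 and 80.1 CPM in control replicates 1, 2 and 3. On library totals PCSK5 was the only gene of the 89 whose groups did not overlap, and non-overlap in either direction was found for 0.749% of tested genes. With TMM factors its groups overlapped, at 3.47, 3.29 and 37.8 normalised CPM after malathion and 5.68, 4.15 and 569 normalised CPM in control. Its log2 fold change was -2.31 ± 2.13 (SE, edgeR adjusted p = 1), and -3.71 with TMM factors. FURIN, a convertase found in most cell types, stayed at or below 2.32 CPM.

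Of the 12 receptor genes, BMPR2, the shared type II receptor of both ligands, stood at 25.9, 36.2 and 69.1 CPM in the malathion libraries, and at 38.9, 52.7 and 36.0 CPM in the control libraries. BMPR1B, the type I receptor of BMP15, stood at 28.7, 29.5 and 9.03 CPM after malathion, and at 18.6, 33.2 and 3.87 CPM in control. TGFBR1, the type I receptor of GDF9, reached 1.39, 0.828 and 0.851 CPM after malathion, and 1.62, 6.24 and 1.05 CPM in control. On library totals BMPR2 was thus highest in malathion replicate 3, where both ligands were low, and the groups overlapped for all 3 genes. With TMM factors GDF9 was not low in that library, at 199 normalised CPM against 167 and 151 in malathion replicates 1 and 2. The activin type I receptor ACVR1B lay between 1.89 and 31.7 CPM after malathion and between 14.4 and 39.8 CPM in control. ACVR1, a type I receptor for bone morphogenetic proteins, lay between 1.61 and 25.8 CPM after malathion and between 1.15 and 24.0 CPM in control. Of the 10 receptor genes tested, 6 had a fold change above 0 and 4 below, and 0 passed.

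SMAD5, a signal carrier of the BMP15 branch, stood at 1325, 1067 and 3336 CPM in malathion replicates 1, 2 and 3, and at 1132, 711.5 and 839.5 CPM in control replicates 1, 2 and 3. SMAD1 of the same branch stood at 61.5, 64.3 and 1.80 CPM after malathion, and at 66.1, 60.5 and 0.441 CPM in control. SMAD2, of the GDF9 branch, stood at 29.6, 32.2 and 1.96 CPM after malathion, and at 31.9, 50.1 and 3.90 CPM in control. SMAD1 and SMAD2 were low in both replicate 3 libraries, as BMP15 was, whereas SMAD5 was not. PPM1A, a phosphatase that can act on SMAD proteins, stood at 38.5, 37.3 and 1244 CPM after malathion, and at 32.8, 45.2 and 93.5 CPM in control. SMURF2, a ubiquitin ligase for the pathway, lay between 65.3 and 254 CPM after malathion and between 113 and 265 CPM in control. Of the 11 tested genes of this list, 5 had a fold change above 0 and 6 below, and 0 passed (SMAD5 1.09 ± 1.81 and PPM1A 2.94 ± 1.95, log2 fold change and SE, edgeR adjusted p = 1 for each).

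BMPER, which binds bone morphogenetic proteins outside the cell, stood at 116, 109 and 9.45 CPM in the malathion libraries, and at 101, 70.2 and 5.80 CPM in the control libraries. FST, the activin antagonist follistatin, lay between 1.94 and 14.2 CPM after malathion and between 2.07 and 12.6 CPM in control. Of the 12 antagonists 5 were tested, with 2 fold changes above 0 and 3 below. Another ligand of the superfamily, BMP4, stood at 67.3, 85.4 and 0.260 CPM after malathion, and at 78.9, 115 and 0.407 CPM in control, again low in both replicate 3 libraries. BMP6, a ligand that oocytes also make in mice, reached 4.65 CPM after malathion and 6.87 CPM in control. Of the 17 other ligands 9 were tested, with 3 fold changes above 0 and 6 below.

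NOBOX, a homeobox factor that activates Gdf9 in mouse oocytes, stood at 3.72, 6.81 and 54.2 CPM in malathion replicates 1, 2 and 3, and at 5.58, 20.5 and 0.170 CPM in control replicates 1, 2 and 3. NR6A1, a nuclear receptor that represses Gdf9 and Bmp15 in mouse oocytes, stood at 45.5, 64.7 and 10.9 CPM after malathion, and at 71.8, 79.2 and 11.7 CPM in control. LHX8, a homeobox factor of early oocytes, stood at 17.8, 48.7 and 2.17 CPM after malathion, and at 19.7, 125 and 2.21 CPM in control. On library totals NOBOX was highest in the library with the least GDF9, and LHX8 was highest in control replicate 2, where GDF9 peaked. With TMM factors GDF9 was instead lowest in malathion replicate 2 (151 normalised CPM) and highest in control replicate 3 (1843 normalised CPM). TAF4B, a gonadal subunit of the general transcription factor TFIID, lay between 0.756 and 17.5 CPM after malathion and between 0.882 and 36.7 CPM in control. Of the 8 tested regulators 3 had a fold change above 0 and 5 below, and 0 passed. The log2 fold change of NOBOX was 1.30 ± 2.13 (SE) on library totals and 5.39 with TMM factors. With TMM factors 0 genes were called, and the smallest edgeR adjusted p of any gene was 0.9998. NOBOX had 2293 reads in malathion replicate 3 and 5 reads in control replicate 3.

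Some other signals between oocyte and cumulus cells were present as well, whereas FGF8 and GJA4 were at 0 in all libraries. OOSP2, an oocyte-secreted protein, stood at 1399, 1514 and 104 CPM in the malathion libraries, and at 1471, 695 and 6.31 CPM in the control libraries. KIT, the oocyte's receptor for the granulosa ligand KITLG, stood at 60.7, 66.2 and 2.91 CPM after malathion, and at 63.2, 57.9 and 4.17 CPM in control. KITLG itself stood at 244, 179 and 15.8 CPM after malathion, and at 187, 133 and 18.8 CPM in control. All 3 genes had their lowest level of each group in replicate 3. EGF, the ligand of the epidermal growth factor receptor, lay between 2.32 and 29.6 CPM after malathion and between 2.54 and 26.6 CPM in control. Of the 8 identifiers listed as other oocyte signals 5 were tested, with 4 fold changes above 0 and 1 below, and 0 passed.

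Genes by which cumulus cells of mice are known to respond to GDF9 and BMP15 were mostly scarce in these oocyte libraries. HAS2, the hyaluronan synthase of cumulus expansion, reached 2.16 CPM after malathion and 1.94 CPM in control, PTGS2, a prostaglandin synthase, 1.05 CPM after malathion and 0.295 CPM in control, and PTX3, a matrix protein of the expanded cumulus, 0.252 CPM after malathion and 0.0360 CPM in control. KITLG, whose levels are given above, was the most abundant gene of this list, with a mean of 130 CPM over all libraries. The glycolytic genes of the list came next. LDHA, lactate dehydrogenase A, stood at 36.4, 104 and 0.307 CPM after malathion, and at 63.8, 275.5 and 0.611 CPM in control. PFKP, a phosphofructokinase, lay between 0.0945 and 46.1 CPM after malathion and between 0.271 and 50.7 CPM in control. Of the 7 tested targets 3 had a fold change above 0 and 4 below, and 0 passed.

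**Figure D4:**
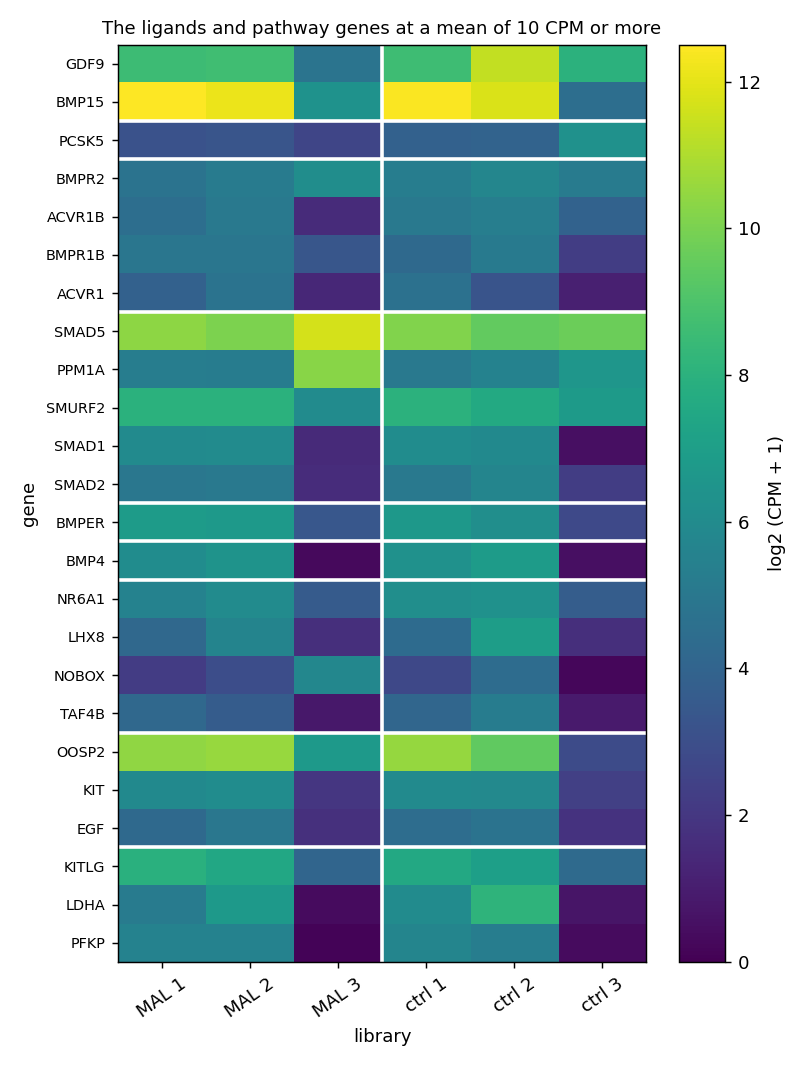
Log2 (CPM + 1) of GDF9, BMP15 and the pathway genes that averaged 10 CPM or more, by library, with white lines between the lists in the order of the text; colours are not scaled for transcript length, so they compare libraries within a gene. Most rows darken in both replicate 3 libraries, BMP15 among them, while SMAD5, PPM1A and BMPR2 do not. PCSK5 is brightest in control replicate 3, NOBOX in malathion replicate 3 and GDF9 in control replicate 2.

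Patterns across the 6 libraries were compared by Pearson's r of log2 (CPM + 1) over the 4724 other genes that had a symbol and reached 10 CPM on average. The points share library, depth and composition, and the r values are descriptions. Closest to GDF9 were G3BP2, an RNA-binding protein of stress granules (r = 0.996), PRPF18, a splicing factor (0.995), DYNLL2, a dynein light chain (0.992), SSR4, a subunit of the translocon-associated complex (0.990), and RPL6, a ribosomal protein (0.989). PRPF18 stood at 163, 239 and 9.52 CPM in malathion replicates 1, 2 and 3, and at 187, 1246 and 97.3 CPM in control replicates 1, 2 and 3. In malathion replicate 3, G3BP2, SSR4 and RPL6 stood at 0.307, 1.11 and 0 CPM, near the floor. On library totals the GDF9 pattern was uncommon, since 2.71% of the genes reached an r of 0.9 with GDF9. RPL6 belongs to a family with many near-identical pseudogene copies, so its counts are uncertain.

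Closest to BMP15 were DCLRE1A, a nuclease of DNA crosslink repair (r = 0.999), MYO6, a myosin motor (0.999), GLE1, an mRNA export factor (0.999), DNAH14, a dynein heavy chain (0.999), and PSMA2, a proteasome subunit (0.999). DCLRE1A stood at 1449, 1485 and 42.4 CPM in the malathion libraries, and at 1522, 1125 and 12.8 CPM in the control libraries. On library totals this pattern was the common one, as 65.4% of the genes reached an r of 0.9 with BMP15. Between GDF9 and BMP15 r was 0.59, and 3475 genes stood closer to GDF9 than BMP15 did.

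**Figure D5:**
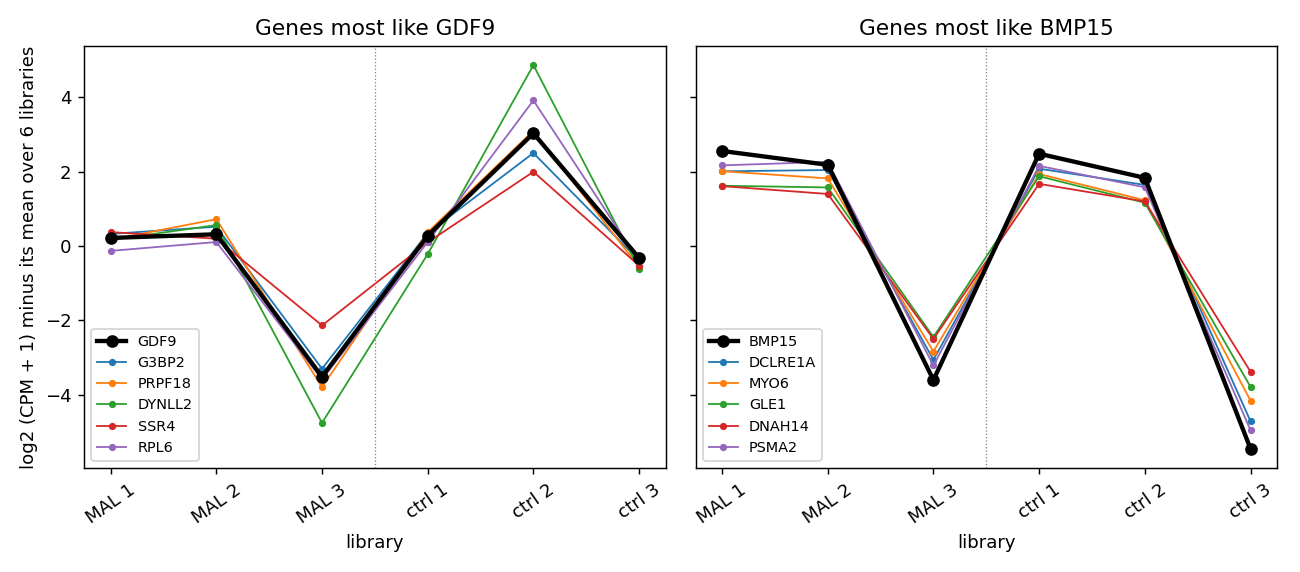
Log2 (CPM + 1) minus its mean over the 6 libraries for GDF9 (left, black) and BMP15 (right, black) with the 5 genes most like each. GDF9 and its 5 genes peak in control replicate 2 and are lowest in malathion replicate 3, and BMP15 and its 5 genes are low in both replicate 3 libraries, lowest in control.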

How the data were processed

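The deposited files hold, per library, whole-number read counts for 25880 Ensembl genes, with no normalization by the authors, and 5 HTSeq rows of unassigned reads. These rows held 36.7% to 42.6% of reads and were left out of totals and tests. STAR 2.5.3a, HTSeq 0.9.1 and DESeq2 1.20.0 are named per the submitters' processing notes; the build, annotation and strand setting are not given in the sources used here, so no coordinates are printed. A table of names gave 14857 symbols, and 13 of the 134 listed symbols had no identifier.

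CPM were computed on the sum of gene rows. Fits used edgeR 4.0.16 (R 4.3.3, limma 3.58.1, DESeq2 1.42.0) with library totals, because TMM factors were very uneven. Genes passed filterByExpr (minimum count 10, total 15), and Benjamini-Hochberg adjustment ran over the 10678 genes kept, at a threshold of 0.05. Standard errors come from the F statistic. Named genes were both members, the 5 genes most like each, and up to 6 genes per list at a mean of at least 10 CPM. Further genes were named outside this rule, among them FURIN, TGFBR1, FST, BMP6, HAS2, PTGS2 and PTX3, which lay below that mean. Members, lists and rules were chosen with earlier results of these data known. Counts of no pair of libraries agreed within sampling noise (chi-square per degree of freedom at least 56.9).

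The groups carry the same replicate numbers, whose meaning the labels leave unsaid. Deviations from the group means were compared across genes between each malathion library and the control library of its number. Their r was 0.467, 0.378 and 0.587 for replicates 1, 2 and 3. Each was over 0.1, so same-numbered libraries were treated as pairs in the replicate block, the sign-flip test and the counts of pairs. This check cannot show that the numbers mark true pairs, and it did not tell replicates 1 and 2 apart. Malathion replicate 2 had r = 0.439 with control replicate 1, and malathion replicate 1 had r = 0.261 with control replicate 2. By chi-square per degree of freedom, malathion replicate 2 was nearer to control replicate 1 (56.9) than to control replicate 2 (581). Alternatives were TMM and RLE factors, no filter, DESeq2, limma-voom, a replicate block and leaving out libraries.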

Additional observations from a re-analysis of the deposited data

How the results depend on the processing

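GDF9 kept a log2 fold change below 0 under each of its 19 alternatives, and an adjusted p above 0.05 in those fitted across all genes; on oocyte marker sums an exact test could not pass. It ran from -2.50 to -0.28 when 1 library was left out. BMP15 ran from -0.40 to 0.97 when 1 library was left out. It turned below 0 without malathion replicate 1 (-0.40), without malathion replicate 2 (-0.04), without control replicate 3 (-0.39), without control replicate 2 and both replicate 3 libraries (-0.10), and with TMM factors without control replicate 3 (-0.028). The difference in the log2 ratio of GDF9 to BMP15 ran from -4.57 to -0.88 when 1 library was left out. That difference was 0.10 without control replicate 2 and both replicate 3 libraries, a setting added after the data were seen. The cause of these turns was not tested. The count of genes called was 0 under each of 17 alternatives. With the replicate block, the log2 fold change was -2.07 for GDF9 (p = 0.0566, edgeR adjusted p = 1) and 0.76 for BMP15, the paired log2 ratio difference was -2.77 (exact sign-flip p = 0.25, the smallest 3 pairs allow), 0 genes were called, and the block changed no call; with TMM factors as well, an alternative added later, the values were -1.86 and 0.96. DESeq2 gave GDF9 -2.54 (unadjusted p = 0.0278, adjusted p = 1.00). Spearman's rho separated few genes over 6 libraries, being 1 for 422 genes with GDF9 and for 86 with BMP15; for the 5 genes named for either it lay between 0.829 and 1. With TMM-normalised CPM the r of the named genes lay between 0.836 and 0.984 for GDF9 and between 0.8996 and 0.988 for BMP15. On that scale 1 of the 5 genes named for GDF9 and 0 of the 5 for BMP15 stayed among the closest 5. At 3 libraries a group the median half-width of a 95% interval was 4.36 on the log2 scale, so smaller changes lay within the error of a typical gene.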

Other observations

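Neighbouring genes were read for the level at which reads could spill into either gene, since strand was not stated. In the RefSeq table of Sscrofa11.1, no neighbouring protein-coding gene overlapped GDF9 or BMP15. On 1 side of GDF9, SHROOM1 stayed at or below 0.581 CPM and SOWAHA at or below 3.56 CPM in each library. On 1 side of BMP15, SHROOM4 stayed at or below 4.02 CPM. DGKK, a diacylglycerol kinase beyond SHROOM4, stood at 13.1, 12.2 and 0.213 CPM in malathion replicates 1, 2 and 3, and at 9.97, 15.9 and 172 CPM in control replicates 1, 2 and 3, so it was highest in the library where BMP15 was lowest. The genes on the other side carried no identifier in the name table and were not analysed here.

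Of some further genes, GDF3 and ZAR1 stood apart in a single library, whereas INHBA varied within both groups. GDF3, a ligand of early embryos, reached 21.1 CPM in control replicate 2 and at most 2.02 CPM elsewhere. ZAR1, an oocyte RNA-binding protein, reached 21.0 CPM in control replicate 2 and at most 3.42 CPM elsewhere. INHBA, a subunit of activin A, stood at 5.15, 17.4 and 11.2 CPM in the malathion libraries, and at 12.1, 0 and 2.38 CPM in the control libraries. These genes were picked after their values were seen, and none passed the edgeR test.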
